A study of Mus musculus with 6 samples.

Results

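The 6 genes described here encode integrin subunits: the α chains Itgav, Itga4, Itga6, Itga8 and Itga10 and the β chain Itgb6. Each was taken by its symbol in the platform annotation, with the brightest row that carried that symbol alone, which for all 6 was the only such row. They are 6 of 7486 genes with a probe set of their own in the deposited table, and no other integrin subunit among 27 looked up was matched to a row of its own. Of 7530 probe sets with 1 gene symbol, 7439 were for genes on chromosomes 1 to 4, so genes of other chromosomes were mostly absent. Ranks below are within this table.

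Integrins are cell surface receptors built from 1 α and 1 β chain. They hold cells to the extracellular matrix or to other cells, and their short cytoplasmic tails tie that contact to the actin cytoskeleton and to signalling. The α chain largely sets the ligand: αv pairs with several β chains and binds RGD-containing proteins such as vitronectin and fibronectin, α8 pairs with β1 and binds nephronectin, α4 binds VCAM-1 and fibronectin, α6 binds laminins and α10 binds collagens. β6 pairs only with αv, in a receptor of epithelial cells that activates latent TGF-β. In melanocytes and their precursors, integrins serve attachment and migration on the basement membrane.

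The cells were Melan-a, an immortalised melanocyte line derived from a C57BL/6 mouse. The siDicer cultures received 50 pmol of a small interfering RNA against Dicer, and the siScr cultures the same amount of a control siRNA. Dicer is the enzyme that releases mature microRNAs from their precursors. Cells of both groups were grown with the phorbol ester TPA and lysed for RNA 24 hours after transfection, and total RNA was read on mouse Clariom D arrays. There were 3 arrays per group, and replicates 1, 2 and 3 were cells of passages 47, 54 and 56 in both groups. All arrays come from 1 cell line, and the knocked-down gene itself was not analysed here, so the groups rest on their labels.

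Values are the authors' log2 signals per probe set, with 1 unit equal to a 2-fold difference in signal. Array medians lay between 4.58 and 4.64, and any pair of arrays correlated with r of at least 0.994 over 16383 probe sets. The number of arrays limits the precision. Of 20 listed melanocyte markers 6 were measured. All 6 lay above the background gauge defined below, the brightest being Tyrp1, a melanin synthesis enzyme, at 12.86 in siDicer and 12.83 in siScr cells. Of these 6, 0 passed the test described below without the pairing, where 0.214% of all probe sets did. With the pairing 2 rose, where 0.757% of all probe sets were called upward. Mreg, melanoregulin, read 7.20, 6.74 and 7.07 in siDicer arrays against 6.37, 6.33 and 6.44 in siScr arrays, a change of 0.62 (limma, adjusted p = 0.0877 without and 0.0435 with a block on replicate number). Lef1, which acts with β-catenin in Wnt signalling, averaged 7.53 in siDicer and 7.02 in siScr cells, a change of 0.52 (adjusted p = 0.212 without and 0.0337 with the block). Slc24a5, Tyrp1, Pax3 and Mlph had changes of 0.09, 0.02, 0.00 and -0.12 and did not pass. Of the other marker lists, of 16 genes each, 4 of 6 measured epithelial, 4 of 6 fibroblast and smooth muscle and 4 of 8 immune genes lay above a background gauge. Of all probe sets 57.8% did. That gauge was 4.22, the 95th percentile of the mean levels of 426 olfactory and vomeronasal receptor genes. Whether any of these genes is expressed in the cells was not tested. The leukocyte antigen Ptprc, which defines immune cells, was below the gauge, at 2.84 in siDicer and 2.85 in siScr cells. The immune genes above it were C1qa, C1qb, Fcer1g and Cd53. Of these, C1qa, C1qb and Fcer1g were lower in siDicer in every pair, as in 22.6% of probe sets, and Cd53 was not. Summed on the linear scale, the epithelial markers ran from 256 to 272.7 in siDicer arrays and from 272.7 to 283 in siScr arrays. The immune markers summed to between 167 and 179 in siDicer arrays and to between 189 and 196 in siScr arrays. The 6 fibroblast and smooth muscle markers, 4 of them also ligand genes treated below, summed to between 306 and 358 in siDicer arrays and to between 285 and 330 in siScr arrays. None of the epithelial, immune or fibroblast markers passed the test in limma in either fit, against 0.214% of all probe sets without and 0.995% with the block. At an unadjusted p under 0.05, without the block, 2 immune markers and 0 epithelial or fibroblast ones did, against 10.2% of all probe sets, and with it 3 immune, 2 fibroblast and 0 epithelial ones did, against 15.7%. The part of the marker values in the integrin values was not tested.

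Itgav and Itga8 stood higher after siDicer, by 0.71 and 0.97 log2 units, while the changes of Itga4, Itga6, Itga10 and Itgb6 ran from -0.12 to 0.07. For Itgav and Itga8 every siDicer array lay above every siScr array. Across the table, groups were parted in this way upward in 7.57% of probe sets, and the groups of the other integrin genes overlapped. The median change of the 6 genes was 0.03, against -0.01 for all probe sets. Differences were tested with limma over all 16383 probe sets, as siDicer minus siScr, with an adjusted p under 0.05 as the threshold. The fit without pairing called 1 of the 6 genes, Itgav, where it called 0.214% of all probe sets and 0.146% upward. With the replicate number as a block, which compares cells of the same passage, 2 were called, Itgav and Itga8, where 0.995% of all probe sets were called and 0.757% upward. An unadjusted p under 0.05 was reached by the same number of integrin genes, 2, in each fit, and by 10.2% of all probe sets without and 15.7% with the block. In bulk RNA a change in the make-up of the culture and a change of RNA per cell cannot be told apart.

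**Figure D1:**
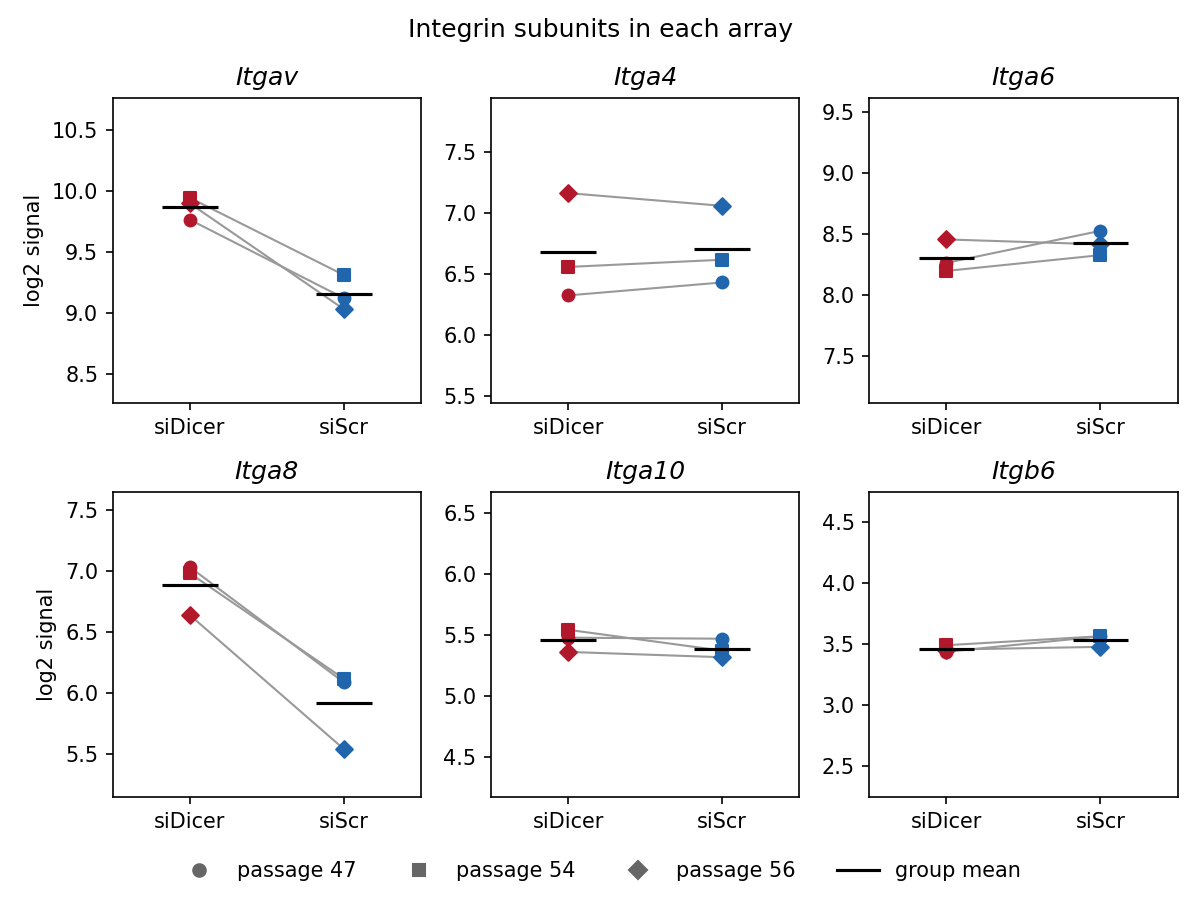
Log2 signal of each integrin subunit gene in each array, siDicer left and siScr right; lines join arrays of the same passage, bars are group means, and every panel spans the same number of log2 units. Itgav and Itga8 were higher in siDicer in all 3 pairs with no overlap between groups, while Itga4 spread more between passages than between siRNAs.

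Integrin αv passed the test in both fits. Itgav read 9.77, 9.95 and 9.90 log2 units in the siDicer arrays of passages 47, 54 and 56, against 9.12, 9.31 and 9.03 in the siScr arrays of the same passages. The lowest siDicer array was thus above the highest siScr array, and the differences within pairs were 0.64, 0.63 and 0.87. Itgav rose by 0.71 log2 units with a standard error of 0.09 without the block (limma, adjusted p = 0.0265), a 1.64-fold difference with a 95% interval from 1.43 to 1.88. With the block the interval was 1.46 to 1.84 and the adjusted p was 0.0232. By absolute size this was the 11th of all 16383 changes.

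The αv call needed most of the arrays. Without siScr replicate 2 it held (limma without the block, adjusted p = 0.0373). Without siDicer replicate 1, 2 or 3 the adjusted p was 0.0899, 0.0946 and 0.158, and without siScr replicate 1 or 3 it was 0.128 and 0.147. The change itself stayed between 0.65 and 0.79 log2 units over these 6 fits, which called between 0 and 20 of all probe sets. With the block, Itgav passed without passage 47 (adjusted p = 0.0302). It did not pass without passage 54 (adjusted p = 0.149) or passage 56 (adjusted p = 0.113), and in those fits 0 of all probe sets passed.

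Integrin α8 showed the largest change in size of any probe set in the table. Itga8 read 7.03, 6.98 and 6.64 log2 units in the siDicer arrays of passages 47, 54 and 56, against 6.08, 6.11 and 5.54 in the siScr arrays. Both groups were lowest at passage 56, and the pairs differed by 0.94, 0.86 and 1.10. The means were 6.88 ± 0.21 in siDicer and 5.91 ± 0.32 in siScr cells (SD, n = 3 each), a change of 0.97 log2 units or 1.96-fold. Each passage was present in both groups, and the block takes up differences between passages that both groups share, so the 2 fits gave different precision. Without the block the standard error was 0.16, the fold interval 1.51 to 2.54, and the gene did not pass (limma, adjusted p = 0.0709). With the block the standard error was 0.07, the fold interval 1.75 to 2.18, and Itga8 passed (limma, adjusted p = 0.0209), with the 2nd smallest p of all probe sets. That call held without passage 47 (adjusted p = 0.0226). It was lost without passage 54 (adjusted p = 0.149) or passage 56 (adjusted p = 0.105), and in those fits 0 of all probe sets passed. Whether the rise of Itga8 was larger than that of Itgav was not tested.

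**Figure D2:**
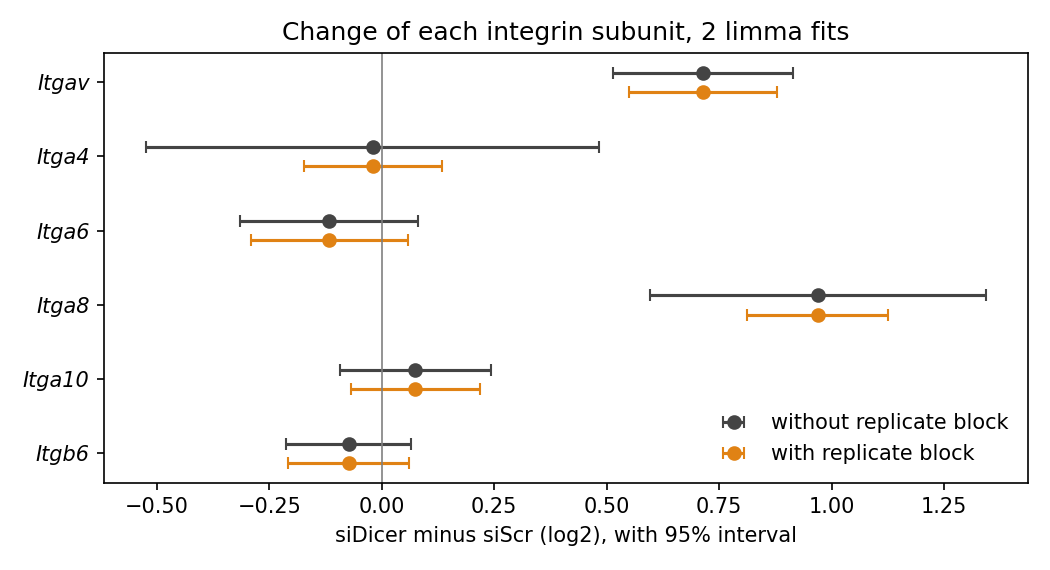
Change of each integrin subunit gene, siDicer minus siScr in log2 units, with its 95% interval from limma without (upper, grey) and with (lower, orange) the replicate block. The intervals of Itgav and Itga8 lie above 0 in both fits, those of the other 4 genes span 0, and the block narrows that of Itga4 and Itga8 most.

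As the integrin genes called in the fit with the block, Itgav and Itga8 are shown with the 300 bases around their starts, 250 before and 50 after, as the RefSeq promoter table for GRCm38.p6 gives them. The Itgav window is chr2:83724147-83724446 on the + strand and the Itga8 window chr2:12301895-12302194 on the - strand, each printed 5′ to 3′ on the strand of its gene. Capitals mark the GC box GGGCGG, read on both strands.
Itgav promoter: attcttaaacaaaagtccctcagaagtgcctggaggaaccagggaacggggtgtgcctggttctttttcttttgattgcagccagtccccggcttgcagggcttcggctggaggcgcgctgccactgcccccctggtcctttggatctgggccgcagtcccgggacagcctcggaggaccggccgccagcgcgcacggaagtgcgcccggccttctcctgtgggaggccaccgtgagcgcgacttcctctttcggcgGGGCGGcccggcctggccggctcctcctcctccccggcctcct
Itga8 promoter: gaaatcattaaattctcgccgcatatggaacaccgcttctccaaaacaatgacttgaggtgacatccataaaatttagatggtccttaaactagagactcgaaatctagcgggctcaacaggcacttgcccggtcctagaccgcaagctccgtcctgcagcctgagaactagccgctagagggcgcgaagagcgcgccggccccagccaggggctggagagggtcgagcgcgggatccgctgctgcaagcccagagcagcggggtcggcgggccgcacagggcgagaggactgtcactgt

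Both windows are rich in G and C, at 67.3% for Itgav and 59.0% for Itga8, against a median of 52.7% over the 32851 promoters in the table. Among integrin genes that did not pass, Itga4 had 64.3%, Itga10 51.0%, and Itgb6 50.3% and 38.3% in its 2 windows. CpG steps numbered 24 for Itgav and 23 for Itga8, against a median of 7. The GC box, a binding motif of Sp1-type factors, occurred 1 time in the Itgav window and 0 times in that of Itga8, and 35.7% of all promoters hold it. It also occurred 1 time in the window of Itga4, which did not pass the test. The E-box CACGTG (7.15% of promoters), the AP-1 site TGANTCA (7.81%), the CCAAT box CCAAT (37.4%) and the TATA box TATAAA (13.6%), read on both strands, were found in neither window. Windows were matched for 5 of the 6 genes. These matches describe letters, not binding.

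Integrin α4 varied with passage. Itga4 read 6.32, 6.56 and 7.16 log2 units in the siDicer arrays of passages 47, 54 and 56, against 6.43, 6.62 and 7.06 in the siScr arrays. Passage 56 was the highest in both groups, and the pairs differed by -0.11, -0.06 and 0.10, so their signs were mixed. The change was -0.02 log2 units, with a fold interval from 0.695 to 1.40 without the block (limma, adjusted p = 0.985) and from 0.886 to 1.10 with it (adjusted p = 0.903). A difference of 1.5-fold was therefore outside the interval in both fits. The mean over both siRNAs was 6.38 at passage 47 and 7.11 at passage 56. That range of 0.73 log2 units between passages was exceeded by 0.507% of probe sets. It is a description of 2 arrays per passage, and each passage is 1 replicate number, so passage and other differences between the pairs cannot be told apart.

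Integrin α6, the laminin receptor chain, did not pass the test. Itga6 read 8.26, 8.19 and 8.45 log2 units in siDicer cells of passages 47, 54 and 56, against 8.52, 8.32 and 8.41 in siScr cells. It was lower in 2 of 3 pairs, by 0.26 and 0.13, and higher by 0.04 in the passage 56 pair. Its change of -0.12 had a standard error of 0.09 without the block (limma, adjusted p = 0.688) and one of 0.07 with it (adjusted p = 0.480). The fold interval without the block ran from 0.804 to 1.06.

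The collagen receptor chain Itga10 averaged 5.46 ± 0.09 log2 units in siDicer and 5.38 ± 0.08 in siScr cells (SD, n = 3 each). All 3 pairs were higher in siDicer, by 0.01, 0.17 and 0.04, a pattern that 17.9% of probe sets shared. The change of 0.07 did not pass (limma, adjusted p = 0.765 without and 0.583 with the block).

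The β chain of the set, Itgb6, was not above the background gauge. It averaged 3.46 ± 0.03 log2 units in siDicer and 3.54 ± 0.05 in siScr cells (SD, n = 3 each), and 64 of the 426 receptor genes read higher than its mean. All 3 pairs were lower in siDicer, by 0.13, 0.07 and 0.02, as in 22.6% of probe sets. The change of -0.07 did not pass (limma, adjusted p = 0.717 without and 0.556 with the block), and at such signals a difference can be compressed. The other β chains that pair with αv and α8 were not analysed here, so a receptor level cannot be read from the α chains.

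**Figure D3:**
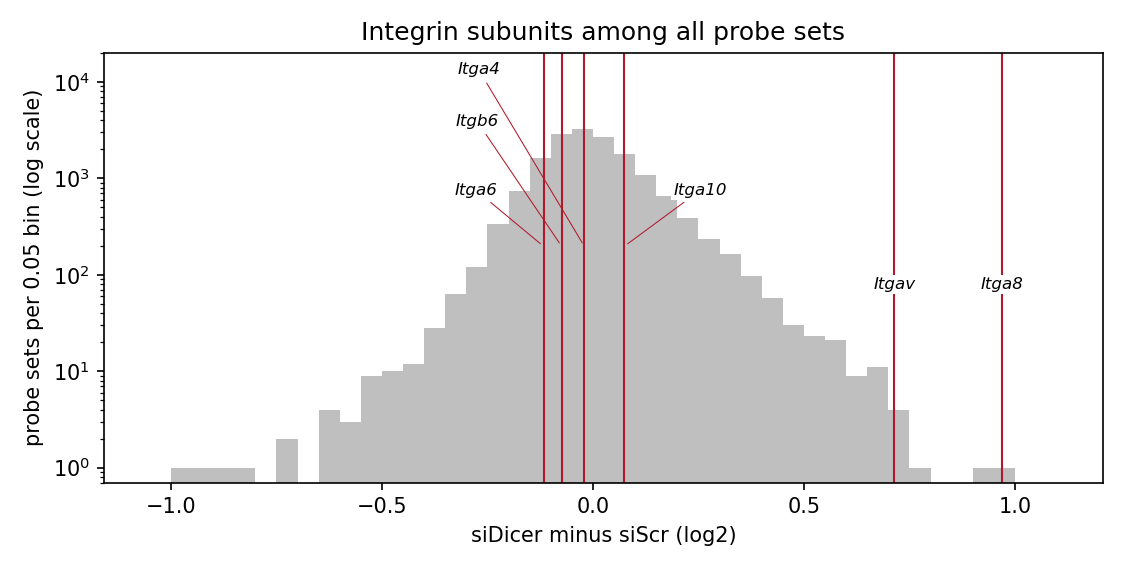
Number of probe sets (log scale) by their change, siDicer minus siScr in log2 units, in bins of 0.05; red lines mark the 6 integrin subunit genes. Itga8 at 0.97 is at the right end of all 16383 probe sets and Itgav at 0.71 is 11th by absolute size, while the other 4 lie in the body of the distribution.

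Among all probe sets the median absolute change was 0.07 log2 units and the 99th percentile 0.42. Itga8 and Itgav were past that percentile, and Itga4, Itga6, Itga10 and Itgb6 were below the 90th percentile of 0.20. Itga8 kept the largest absolute change in 10 of 20 alternative analyses and ranked between 1 and 14 over all of them. Itgav ranked between 8 and 34.

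Genes next to the integrin genes were looked up in the RefSeq gene table, as the 2 nearest measured coding genes on each side. None of these 24 neighbours passed in limma, in either fit, against 0.214% of all probe sets without and 0.995% with the block. An unadjusted p under 0.05 was reached by 4 without and 6 with the block, against 10.2% and 15.7% of all probe sets. Beside Itgav, Fam171b averaged 5.75 in siDicer and 6.24 in siScr cells, a change of -0.50 (adjusted p = 0.576 without and 0.0660 with the block), and Zc3h15 had one of -0.11. Beside Itga8, Mindy3 had a change of -0.24 (adjusted p = 0.338 without and 0.125 with the block) and Fbh1 one of 0.09. The smallest adjusted p was that of Lix1l beside Itga10, with a change of 0.43 (adjusted p = 0.0584 without and 0.0522 with the block).

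Likeness to each integrin gene was measured by Pearson's r of the log2 values over the 6 arrays, among 3586 other named genes above the background gauge (3587 for Itgb6). The arrays share passages and groups, so r is a description. Genes were chosen by r over the same arrays that limma tested, so whether they passed is not independent of that choice. Itgav was most like Dbt, a subunit of the branched-chain keto acid dehydrogenase (r = 0.999), Fndc3b, a protein with fibronectin type III domains (r = 0.998), and Spg20, spartin (r = 0.996). These had changes of 0.51, 0.74 and 0.37. Fndc3b passed without the block (limma, adjusted p = 0.0265), while Dbt missed the threshold without the block (adjusted p = 0.05004) and passed with it (adjusted p = 0.0304), as did Spg20 (adjusted p = 0.0944 and 0.0495). Itga8 was most like Fam174a, Cnst and Npr2, with r of 0.984, 0.984 and 0.980. Their changes of 0.14, 0.18 and 0.15 were far smaller and did not pass in either fit. Itga4 was most like Serpinb8, Rnf2 and Lrrc57 (r = 0.980, 0.971 and 0.962), and Itga6 most like Astl, Clvs1 and Nav1, with r from 0.968 to 0.969. The nearest to Itga10 were Pdp1, Fmod and Eya1 (r = 0.935, 0.916 and 0.912), and to Itgb6 Nkx2-2, Cybrd1 and Zfp648 (r = 0.995, 0.982 and 0.967). Of the genes nearest to these last 4 integrin genes, none passed in either fit.

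Of 41 listed integrin ligand genes 18 were measured, and listed genes without a row of their own are in no count or median. Of these 18, 0 passed without the block, where 0.214% of all probe sets did. An unadjusted p under 0.05 in limma was reached by 5, against 10.2% of all probe sets. With the block 4 rose, Npnt, Thbs1, Lamc1 and Lama5, where 0.757% of all probe sets were called upward. The median of the 18 was 0.02, with 9 above 0 and 9 below, against a median of -0.01 for all probe sets. Over all 4 lists around the integrins, 6 of 44 measured genes passed with the block, where 0.995% of all probe sets did. With the block after quantile or cyclic loess normalization 3 of the 44 passed, Npnt, Thbs1 and Tgfbr1, and Lamc1, Lama5 and Tns1 did not. Those fits called 84 and 93 of all 16383 probe sets. Without passage 54 or passage 56 none of the 44 passed with the block, and in those fits 0 of all probe sets did.

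Npnt encodes nephronectin, a ligand of α8β1 in the basement membrane. It read 9.20, 8.94 and 9.31 log2 units in siDicer arrays of passages 47, 54 and 56, against 8.66, 8.36 and 8.75 in siScr arrays. Its groups did not overlap, being parted upward as in 7.57% of probe sets, and its change was 0.56 (limma, adjusted p = 0.155 without and 0.0232 with the block). Thbs1 encodes thrombospondin 1, a matrix glycoprotein bound by several integrins including αv. It read 8.68, 9.23 and 8.70 in siDicer arrays, against 8.17, 8.76 and 7.99 in siScr arrays. The groups overlapped but each pair was higher in siDicer, as in 17.9% of probe sets. Its change was 0.56 (adjusted p = 0.429 without and 0.0319 with the block).

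The laminin chains γ1 and α5, which occur together in laminin-511, a ligand of α6β1, are encoded by Lamc1 and Lama5. Lamc1 averaged 9.62 ± 0.09 in siDicer and 9.16 ± 0.11 log2 units in siScr cells (SD, n = 3 each), a change of 0.46 with groups that did not overlap (limma, adjusted p = 0.0773 without and 0.0340 with the block). Lama5 averaged 7.99 ± 0.20 in siDicer and 7.54 ± 0.30 in siScr cells (SD, n = 3 each), a change of 0.45 (adjusted p = 0.388 without and 0.0486 with the block). Both genes were higher in all 3 pairs, as in 17.9% of probe sets, in cells whose Itga6 did not pass.

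Ligand genes other than Npnt, Thbs1, Lamc1 and Lama5 gave no call in either fit, among them ligands of αv receptors. Vcam1, the counter-receptor of α4β1, had a change of -0.04 (limma, adjusted p = 0.966 without and 0.854 with the block). Fn1, fibronectin, bound by αv and α4 receptors among others, had one of 0.26 (adjusted p = 0.544 without and 0.173 with the block). Tnc, tenascin C, had the lowest change of the list, -0.44 (adjusted p = 0.477 without and 0.0660 with the block). The collagen genes Col3a1 and Col5a1 had changes of -0.00 and 0.19. These 5 genes were named after their values were seen.

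**Figure D4:**
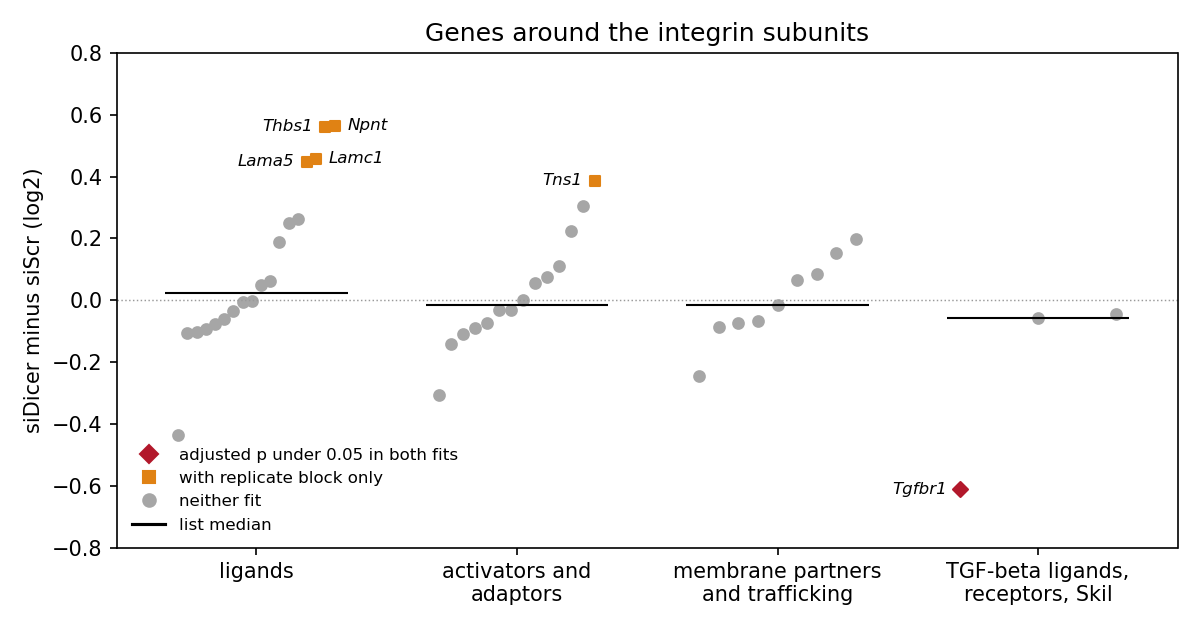
Change of each gene of the 4 lists around the integrin subunits, siDicer minus siScr in log2 units, 1 point per gene in order of change, with the list median as a line. Tgfbr1 at -0.61 passed in both fits (red), 4 ligand genes and Tns1 passed with the replicate block only (orange), and the remaining genes passed in neither (grey).

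On the cytoplasmic side, 14 of 60 listed activators and adaptors were measured. Without the block 0 passed, against 0.214% of all probe sets, and 3 had an unadjusted p under 0.05 in limma, against 10.2%. With it 1 rose, Tns1, where 0.757% of all probe sets were called upward. The list median was -0.01. Tns1 encodes tensin 1, which binds β chain tails and actin. It read 7.91, 8.58 and 7.92 log2 units in siDicer arrays of passages 47, 54 and 56, against 7.59, 8.18 and 7.48 in siScr arrays. The passage 54 pair was the brightest, and the change was 0.39 (limma, adjusted p = 0.605 without and 0.0474 with the block).

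Without the block the smallest p among the adaptor genes were those of Rap1a, Dst and Kank4, and these 3 passed in neither fit. Rap1a, a small GTPase that switches integrins on through talin, had a change of -0.31 log2 units (limma, adjusted p = 0.157 without and 0.0660 with the block). Dst, dystonin, a cytoskeletal linker, had a change of 0.30 (adjusted p = 0.229 without and 0.0838 with the block), and Kank4, of a family that binds talin, one of 0.22 (adjusted p = 0.367 without and 0.198 with the block). Tln1, talin 1, which opens integrins from the inside, had one of 0.11 and Fermt1, kindlin 1, its partner in that step, one of 0.00 (adjusted p = 0.624 and 0.998 without the block). Fermt1 lay below the background gauge, at 3.76 in both groups. These 5 adaptor genes were named after their values were seen.

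Of 34 listed membrane partners and trafficking genes 9 were measured, and 0 of these passed in either fit in limma. An unadjusted p under 0.05 was reached by 2 without the block and 3 with it, against 10.2% and 15.7% of all probe sets. The list median was -0.01. The tetraspanin Cd82 had a change of 0.20, the sorting nexin Snx27 one of 0.15 and Hax1, which binds the β6 tail in human cells, one of -0.25, with adjusted p from 0.439 to 0.495 without the block.

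Receptors of the αv family release TGF-β from its latent complex, and 3 of 19 genes of the TGF-β list were measured. Tgfbr1, the type I receptor, read 6.66, 6.83 and 6.87 log2 units in siDicer arrays of passages 47, 54 and 56, against 7.32, 7.45 and 7.42 in siScr arrays. Every siDicer array was below every siScr array, so all 3 pairs were lower, as in 22.6% of probe sets. The share of all probe sets with groups parted downward was not counted. Tgfbr1 fell by 0.61 in both fits (limma, adjusted p = 0.0265 without and 0.0232 with the block). It was the only gene of the 44 pathway genes that passed without the block, where 0.214% of all probe sets did. That call was lost on leaving out any 1 of the 6 arrays (adjusted p between 0.0770 and 0.150), while the change stayed between -0.65 and -0.55. Those 6 fits called between 0 and 20 of all probe sets. With the block the Tgfbr1 call held without passage 47 (adjusted p = 0.0302). It was lost without passage 54 (adjusted p = 0.149) or passage 56 (adjusted p = 0.113), where 0 of all probe sets passed. The ligand gene Tgfb2 had a change of -0.06 and the Smad co-repressor gene Skil one of -0.05, and neither passed. Both were named after their values were seen.

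Since Dicer releases microRNAs, a family tied to 2 of these integrins in earlier work is shown. In human prostate cancer cells miR-25 has been reported to lower αv and α6. In RefSeq, 6 mouse mature microRNAs of this kind share bases 2 to 8, the seed that pairs with targets. The mature sequences, from the RefSeq microRNA table for GRCm38.p6, are printed 5′ to 3′ with the seed in capitals.
miR-25-3p: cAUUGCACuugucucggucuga
miR-32-5p: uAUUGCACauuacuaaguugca
miR-363-3p: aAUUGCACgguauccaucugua
miR-367-3p: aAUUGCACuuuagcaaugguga
miR-92a-3p: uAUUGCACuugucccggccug
miR-92b-3p: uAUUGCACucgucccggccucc

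Mature microRNAs were not analysed here, and neither were target sites. Of the family, 3 hairpin genes had a probe set. Mir92b averaged 6.31 ± 0.09 in siDicer and 6.45 ± 0.18 log2 units in siScr cells (SD, n = 3 each), a change of -0.13 (limma, adjusted p = 0.680 without and 0.348 with the block). Mir32 and Mir367 were below the background gauge in both groups. A probe set on such a gene can read the primary transcript and does not give the level of the mature form.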

How the data were processed

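Per the labels' protocols, total RNA was prepared for the mouse Clariom D arrays with WT PLUS kits. The deposited values are log2 signals per transcript cluster. The submitters' processing notes name Affymetrix Expression Console as the authors' tool; its version, the background correction, the normalization and the genome build were not given in the sources used here. Array medians were nearly equal, as after scaling between arrays, and such scaling can mask a shift common to most transcripts.

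The table held 16383 probe sets, of which 7530 carried 1 gene symbol in the platform annotation, 7439 of them for genes on chromosomes 1 to 4. Symbols of 230 were updated through Entrez numbers. Lists give each gene by its brightest row.

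The comparison, siDicer minus siScr, used lmFit and eBayes (no trend) of limma 3.58.1 under R 4.3.3, with Benjamini-Hochberg adjustment over all probe sets. Arrays of the same number deviated together from their group means (r of 0.44, 0.41 and 0.24), and the labels give these a shared passage, so the numbers pair the samples. The fit without the block is given first and that with the replicate block beside it. The procedure was also run on simulated arrays with known changes. Those arrays had no differences shared by a passage, so that run cannot tell which of the 2 fits suits these data. The labels call the replicates biological.

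The integrin genes and the lists were chosen with earlier results of these data known. Named were the integrin genes, genes of the pathway lists past the threshold in either fit or else the 3 of smallest p without the block, and the 3 most alike genes per integrin gene; other list genes were named after their values were seen. Neighbours, promoters and microRNAs were added after the values were seen.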

Additional observations from a re-analysis of the deposited data

How the results depend on the processing

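In 20 alternatives the change of Itgav lay between 0.64 and 0.79, past the threshold 13 times, and that of Itga8 between 0.78 and 1.09, past it 6 times. Itga8 did so with the replicate block (0.97), with the block after cyclic loess (0.96) or quantile normalization (0.95), with array weights (1.06), among probe sets with 1 symbol (0.97), and with the block without replicate 1 (0.98). Leaving out 1 array gave 0.65 to 0.79 for Itgav, 0.78 to 1.09 for Itga8 and -0.26 to 0.16 for Itga4, which thus changed sign; leaving out 1 pair, with the block, gave 0.64 to 0.75, 0.90 to 1.02 and -0.0826 to 0.0225 (the last without replicate 1). Itga6, Itga10 and Itgb6 kept their sign and never passed. Integrin genes past the threshold numbered 1, against 2 in the 5 alternatives with all arrays in which Itga8 passed, 0 to 1 without 1 array and 0 to 2 without 1 pair.

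All probe sets past the threshold numbered 35 (24 higher, 11 lower), against 163 with the replicate block, 93 and 84 with the block after cyclic loess and quantile normalization, 66 with array weights and 69 among probe sets with 1 symbol. The split was 19 higher and 14 lower with quantile normalization and 19 to 15 with cyclic loess. The 44 pathway genes gave 1 call, 6 with the block, 3 with the block after either normalization, and 2 with array weights or among probe sets with 1 symbol. Without 1 array these counts were 0 to 20 and 0, and without 1 pair 0 to 157 and 0 to 4. Fewer samples by construction lower the power of those fits; otherwise the cause was not tested. Other probe sets of an integrin gene could not be tried, since each had 1 row, and Itgb6 gave no value among probe sets above background.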
